A study of Homo sapiens with 18 samples.

Results

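Chromatin accessibility was described at the genes of 9 components of the Hedgehog pathway in a human colon fibroblast line: the transcription factors GLI1, GLI2 and GLI3, the receptor PTCH1, the signal transducer SMO, the ligand trap HHIP, the co-receptors BOC and GAS1, and the GLI inhibitor SUFU. Its regions were the ATAC-seq peaks that overlapped the body of a member gene or the 20 kb on either side of it, in GENCODE release 44 on hg38. The rule took 291 of the 334857 peaks of the count table: 91 at GLI2, 61 at GLI3, 45 at SUFU, 26 at PTCH1, 25 at BOC, 18 at SMO, 14 at GLI1, 9 at GAS1 and 2 at HHIP. No peak was lost to the filter on low counts, so all 291 were tested.

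In the Hedgehog pathway, secreted ligands such as Sonic and Indian hedgehog bind PTCH1, which in the absence of ligand holds SMO inactive. Active SMO releases the GLI factors from SUFU; GLI1 and GLI2 act mainly as activators, whereas GLI3 is processed to a repressor when the pathway is silent. BOC and GAS1 help ligand reach PTCH1, HHIP captures it, and PTCH1, HHIP and GLI1 are themselves transcribed in response to the signal. In the gut, the epithelium secretes the ligands and the fibroblasts and muscle cells beneath it receive them.

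The established line Ccd18-Co, human colon fibroblasts used up to passage 20, was assayed by Omni-ATAC, in which a transposase cuts accessible DNA, in 3 groups of 6 libraries. The DMSO and the belinostat groups both received 3 pulses of TNF, OSM and IL-17A at 10 ng/ml each with IL-1B at 0.1 ng/ml; each pulse lasted 72 h and was followed by 96 h of recovery. After 1 week of rest these cells were given either the solvent DMSO or 250 nM belinostat, an inhibitor of histone deacetylases, for 5 days, and were collected 2 weeks later. The unstimulated group received no cytokines, and the labels do not state whether it received DMSO. The difference between DMSO and unstimulated libraries is called the cytokine contrast, that between belinostat and DMSO the belinostat contrast, and that between belinostat and unstimulated the residual contrast; every pair of them shares a group. As a model the line is limited to 1 cultured cell source, the study text gives more than 1 dose of IL-1B, of which that of the labels is used here, and a default belinostat concentration above that of the labels for assays with no other statement, and no source states that the 6 libraries of a group came from separate cultures, so p-values may measure a spread that is partly technical.

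The libraries held 7077321 to 11352032 counts in peaks in the unstimulated group, 6488975 to 8066642 in the DMSO group and 4661678 to 6370845 in the belinostat group (belinostat against DMSO, two-sided exact permutation test, p = 0.00216, the smallest it can give). The share of counts taken by the 10000 strongest peaks averaged 36.8% without stimulation, 33.1% with DMSO and 30.9% with belinostat (exact permutation test, p = 0.00216 and 0.0714 for the first 2 contrasts). The cells carried the accessible starts of fibroblasts: all 10 marker genes, among them COL1A1 and PDGFRB, had a peak within 1 kb of their start, at a mean of 28.8 CPM (counts scaled to the library total) per gene, against 2.84 CPM for 6 epithelial markers, 0.609 CPM for 4 endothelial markers, 2.77 CPM for 5 immune and 4.45 CPM for 4 smooth muscle and glia markers. Such a peak was also present at 6 of 6 epithelial, 3 of 4 endothelial and 2 of 5 immune markers. It was present at 3 of 4 smooth muscle and glia markers too, so presence alone did not set the fibroblast genes apart. The immune genes PTPRC, CD79A and SPI1 and CDH5 of endothelium had no such peak. The start of CD14, an immune marker, held means of 11.9, 12.8 and 15.2 CPM in unstimulated, DMSO and belinostat libraries and that of MYH11, a smooth muscle marker, 13.8, 14.1 and 17.2 CPM, beside 4.19 to 6.33 CPM at the fibroblast genes COL3A1, DCN and LUM, on a scale that is not corrected for peak width. Summed over the list, the epithelial starts held 11.7 to 15.5 CPM in unstimulated, 14.4 to 20.1 CPM in DMSO and 15.4 to 27.1 CPM in belinostat libraries, the immune starts 9.32 to 13.8, 9.92 to 17.1 and 14.9 to 18.8 CPM, the endothelial starts 0.399 to 2.26, 1.96 to 3.32 and 1.76 to 5.59 CPM, the smooth muscle and glia starts 12.5 to 17.6, 15.1 to 18.8 and 17.8 to 24.5 CPM, and the fibroblast starts 313 to 334, 244 to 296 and 238 to 315 CPM. The part of these differences in the results that follow was not tested.

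The sequences of 4 member peaks are shown because the results turn on them, each as the central 300 bases on the plus strand of hg38. The first 3 are the peaks with the smallest p in the belinostat contrast, and the fourth is the peak with the largest rise in the cytokine contrast. Capitals mark matches to the AP-1 word TGANTCA and to the consensus of NF-kB, searched on both strands.
SUFU, -10.8 kb (chr10:102493019-102493318): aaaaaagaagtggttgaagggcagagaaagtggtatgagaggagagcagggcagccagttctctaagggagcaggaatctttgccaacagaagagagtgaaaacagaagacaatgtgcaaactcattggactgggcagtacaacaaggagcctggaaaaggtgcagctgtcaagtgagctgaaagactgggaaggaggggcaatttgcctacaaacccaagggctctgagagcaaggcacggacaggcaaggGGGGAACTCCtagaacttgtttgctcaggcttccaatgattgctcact
GLI2, 22.7 kb (chr2:120758428-120758727): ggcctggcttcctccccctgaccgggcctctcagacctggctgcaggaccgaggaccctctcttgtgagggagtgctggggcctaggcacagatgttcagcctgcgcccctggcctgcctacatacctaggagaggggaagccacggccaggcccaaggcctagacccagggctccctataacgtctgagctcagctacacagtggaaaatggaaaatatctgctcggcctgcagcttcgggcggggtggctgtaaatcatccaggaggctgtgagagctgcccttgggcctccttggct
GLI3, 139.3 kb (chr7:42097795-42098094): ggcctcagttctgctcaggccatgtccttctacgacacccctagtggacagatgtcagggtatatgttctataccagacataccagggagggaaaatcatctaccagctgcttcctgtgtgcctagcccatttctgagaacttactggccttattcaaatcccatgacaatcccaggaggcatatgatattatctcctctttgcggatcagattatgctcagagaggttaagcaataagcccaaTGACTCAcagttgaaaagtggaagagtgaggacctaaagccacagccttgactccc
GLI3, 204.2 kb (chr7:42032891-42033190): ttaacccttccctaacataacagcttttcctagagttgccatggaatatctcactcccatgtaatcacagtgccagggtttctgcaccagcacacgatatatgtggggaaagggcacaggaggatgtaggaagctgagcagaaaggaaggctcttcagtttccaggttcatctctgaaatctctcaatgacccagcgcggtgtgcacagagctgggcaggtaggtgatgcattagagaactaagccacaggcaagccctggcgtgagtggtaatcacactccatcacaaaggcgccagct
The SUFU window held 1 NF-kB match, the GLI3 window at 139.3 kb held 1 AP-1 match, and the other two held neither. Distances are from the start of the canonical transcript to the centre of the peak, negative upstream.

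The word bound by GLI factors, GACCACCCA on either strand, was found in the central 300 bases of 2 of the 291 member peaks (0.687%) and of 0.319% of all peaks. The first lay in an exon of PTCH1 upstream of the canonical start, at -7.6 kb, and the other in the flank of SMO, at -19.2 kb. The window in the SMO flank overlaps an untranslated region of another gene, so it cannot be assigned to SMO alone. Both are shown on the strand of the word with the word in capitals.
PTCH1 (chr9:95516822-95516850): tggcgcggcaGACCACCCAcgccgagggc
SMO window (chr7:129169336-129169364): cgggggcgggGACCACCCAcgaagtccag
The AP-1 word was in 21% of member windows and in 17.8% of all, the TEAD word GGAATG in 24.1% and 21.3%, and the NF-kB consensus in 4.12% and 4.64%. These are descriptions of letters, and none of them is shown to be a bound site. The PTCH1 peak with the GLI word changed by -0.17 in the cytokine and -0.17 in the belinostat contrast, and the SMO peak by -0.02 and -0.37, with no adjusted p under 0.4.

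Member peaks were stronger than most. Their median of the average level was 0.96 on the log2 CPM scale, against 0.20 over all peaks, their median width was 306 bp against 275 bp, and their median GC content was 52% against 49.7%. By position, 20 lay within 1 kb of a member's own start, 7 at the start of another coding gene, 30 in exons, 177 in introns and 57 in the flanks. In every 100 kb of window there were 17.8 peaks at GLI3 and 30.6 at GLI2, with the other members but HHIP in between, and 1.4 at HHIP, where both peaks lay within 1 kb of the start. Of the 14 peaks of the short GLI1 gene, 10 lay inside the body of another coding gene, as did both peaks at HHIP, 9 of the 45 at SUFU, 4 at BOC, 3 at SMO and 2 at PTCH1, so these cannot be assigned to the member alone.

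Per kb of peak in unstimulated cells, the start peak was most accessible at SUFU, with 98.7 ± 9.35 CPM (SD, n = 6). That peak covers the start of ACTR1A and ends short of the SUFU start. Those taken for GLI1 and GLI2 also lie within 1 kb of the start without reaching it. GLI2 followed with 37 ± 4.01, GLI1 with 34.5 ± 3.47, PTCH1 with 34 ± 1.2, GLI3 with 27.5 ± 2.68, GAS1 with 26.9 ± 1.97, BOC with 22.3 ± 2.78, SMO with 15.4 ± 1.35 and HHIP with 3.09 ± 0.391 CPM per kb. The ranges of neighbours in this order did not overlap between SUFU and GLI2, BOC and SMO, and SMO and HHIP, and the other neighbours overlapped. Without division by peak width the order differed. Unstimulated medians were then 6.90 log2 CPM at SUFU, 5.67 at GLI3, 5.54 at GLI2, 4.75 at GAS1 and 4.71 at BOC. They were 4.47 at SMO, 4.30 at PTCH1, 3.96 at GLI1 and 2.35 at HHIP. The start of the ligand trap was thus weakly open beside those of the receptors, SMO and the GLI factors, which ran from 15.4 to 37 CPM per kb.

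**Figure D1:**
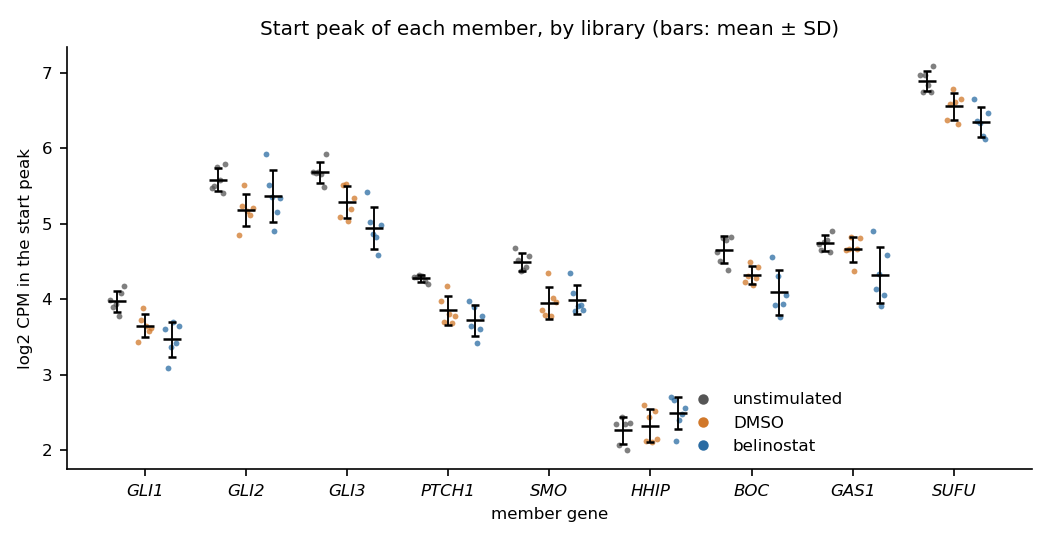
Level of the start peak of each member in every library, in log2 CPM (vertical axis), by group, with mean ± SD bars. SUFU was highest (6.75 to 7.09 in unstimulated libraries) and HHIP lowest (2.00 to 2.43), and in 8 of the members the mean was lower in DMSO than in unstimulated libraries, with HHIP the exception. The peak taken for SUFU covers the start of ACTR1A and ends short of that of SUFU.

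In the cytokine contrast, strong member peaks were lower and weak ones higher in the DMSO than in the unstimulated libraries. Of the 291 peaks, 11 opened (3.78%), against 9.51% of all peaks, and 47 closed (16.2%), against 9.73% of all peaks, at an edgeR adjusted p under 0.05. The falls ran from -0.74 to -0.31 in log2 fold change and all 47 were among the stronger 50% of all peaks, as were 32090 of the 32570 closed peaks overall. The rises ran from 0.88 to 2.52, at peaks with an average log2 CPM of at most 0.71. Over all peaks the median change moved with strength in the same way, from 0.79 in the weakest of 20 bins to -0.37 in the strongest. Against the median of the peaks of their own bin, the member peaks differed by a median of 0.00, from a median log2 fold change of -0.08 beside 0.13 for all peaks. The count of closed peaks rested on the scaling: with offsets that follow each library's trend with strength, 10 opened and 1 closed, with library totals 20 opened and 10 closed, and with factors from the weaker 50% of peaks 5 opened and 119 closed. Of all peaks, 3.26% opened and 1.49% closed with these offsets, 16.2% and 3.25% with library totals, and 2.26% and 25% with those factors. Leaving out unstimulated replicate 1 or 6 or DMSO replicate 1 left 29 or 30 closed, and leaving out DMSO replicate 5 or 6 left 6 or 7 opened. The closed peak that passed the test under each of these settings was the GLI2 peak 199.9 kb from the start.

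**Figure D2:**
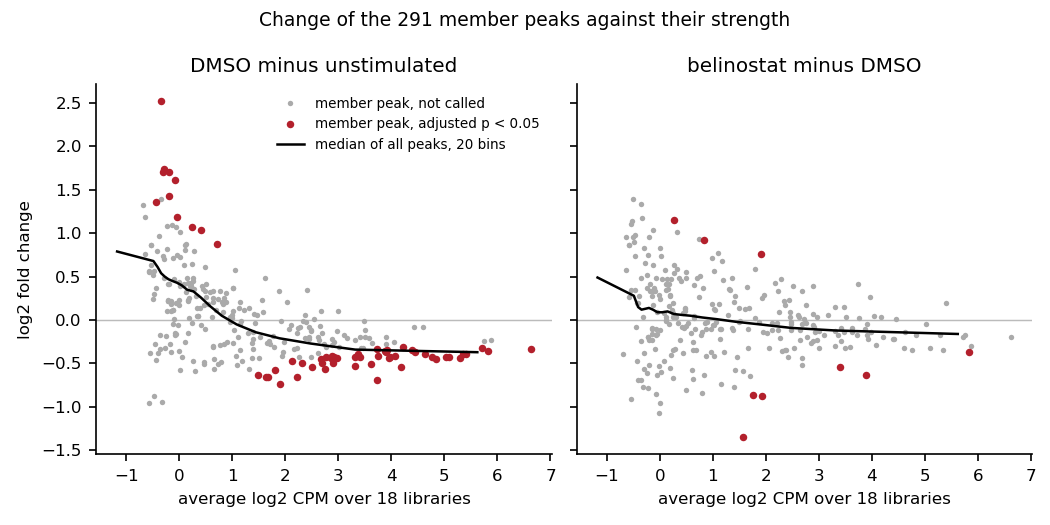
Log2 fold change of each of the 291 member peaks (vertical axis) against its average log2 CPM (horizontal axis) in the cytokine contrast, left, and the belinostat contrast, right; red points passed an adjusted p of 0.05 and the line is the median of all peaks in 20 bins of strength. On the left the member peaks follow the line from above 0 at low to below 0 at high levels, and on the right 3 peaks above and 6 below 0 are red.

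The starts of the members followed that trend. Of the 20 peaks at own starts, 10 closed in the cytokine contrast, none opened, and their median log2 fold change was -0.34, or 0.00 after the median of their bin was subtracted. Beside this, 9.73% of all peaks and 19.2% of their stronger 50% closed. The share over all coding starts was not computed. At SMO the start peak (chr7:129188221-129189665) read 4.37, 4.47 and 4.68 log2 CPM (lowest, median and highest) in unstimulated libraries and 3.77, 3.90 and 4.34 in DMSO libraries. These 2 groups did not overlap, and the change was -0.54 ± 0.12 (SE; adjusted p = 0.000507), which was -0.17 relative to its bin. The start peak of PTCH1 (chr9:95508971-95509532) did not overlap either, with 4.20 to 4.32 against 3.68 to 4.17 log2 CPM and a change of -0.43 ± 0.12 (adjusted p = 0.00619). Smaller changes were called at the start peaks of GLI3 (-0.39), GLI2 (-0.39), BOC (-0.35), SUFU (-0.33) and GLI1 (-0.33), where the groups overlapped. Of 26 alternatives, 13 lost the call at GLI1, 7 at BOC, 3 at SUFU and 1 each at GLI2 and GLI3. In each of these 5 peaks the sign turned under 1 more. GAS1 (-0.08, adjusted p = 0.661) and HHIP (0.06, adjusted p = 0.814) did not pass. With the offsets that follow strength none of these start peaks was called lower; those of GLI1, GLI2, GLI3 and BOC came to 0.01 or 0.02, and that of GAS1 to 0.29 (adjusted p = 0.00432).

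GLI2, the main activator of the pathway in many mesenchymal cells, had 1 opened and 16 closed of 91 peaks in the cytokine contrast (1.1% and 17.6%). Over all peaks 9.51% opened and 9.73% closed. A stretch inside the gene was singled out after its values were seen: of the 5 peaks from 195.2 to 202.0 kb, 4 closed. The strongest of them (chr2:120935504-120936010), at 199.9 kb, read 3.91, 3.99 and 4.20 log2 CPM in unstimulated, 2.57, 3.42 and 3.63 in DMSO and 3.22, 3.77 and 4.21 in belinostat libraries. Every DMSO library lay below every unstimulated library, with DMSO replicate 1 far below the other DMSO libraries. The log2 fold change was -0.69 ± 0.13 (adjusted p = 7.18e-05) in the cytokine contrast, 0.42 ± 0.14 in the belinostat contrast (adjusted p = 0.0743) and -0.27 ± 0.13 in the residual contrast (adjusted p = 0.102). Over its 26 alternative settings the cytokine change stayed between -1.14 and -0.35, and the adjusted p reached at most 0.0246. Of the 5 neighbours, 4 had a belinostat log2 fold change above 0 and none was called by edgeR or DESeq2 (3 at an unadjusted p under 0.05); the DMSO libraries enter both contrasts.

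GLI3, the factor with a repressor form, had the largest rise of any called member peak. At 204.2 kb (chr7:42032920-42033162), in an intron, the peak held 0 to 2 counts per library in the unstimulated group and 4 to 12 in the DMSO group, which is 6 against 38 counts in sum. No library overlapped between these groups, and the log2 fold change of 2.52 ± 0.54 (adjusted p = 0.000546) stayed between 2.13 and 2.80 over 25 alternatives. In belinostat libraries it held 0 to 6 counts, 19 in sum, and the belinostat change of -0.69 ± 0.43 did not pass (adjusted p = 0.43). GLI3 had 2 further opened and 7 closed peaks, and its other opened peaks, 162.8 and -25.8 kb from the start, changed by 1.19 and 1.74. All 3 were weak, with an average log2 CPM of -0.05 or less. Opened and closed peaks were 4.92% and 11.5% of the 61 at GLI3, beside 9.51% and 9.73% of all peaks.

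**Figure D3:**
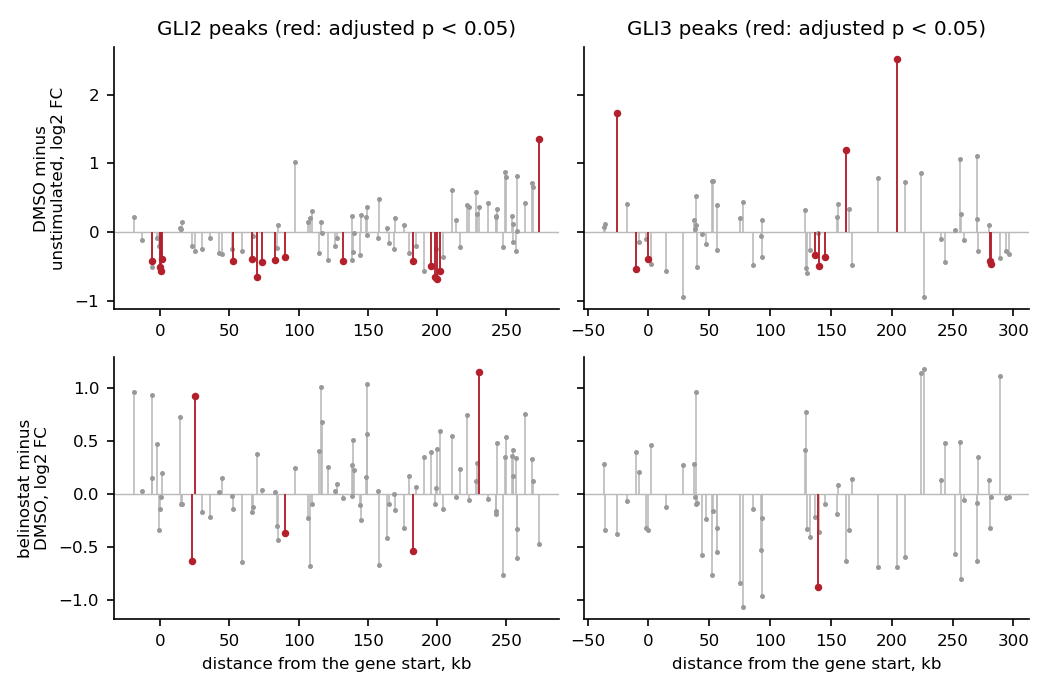
Log2 fold change of every GLI2 peak, left, and GLI3 peak, right, against its distance from the gene start in kb, for the cytokine contrast, top, and the belinostat contrast, bottom; red marks an adjusted p under 0.05. At GLI2 the red falls of the cytokine contrast include 4 peaks from 195.2 to 202.0 kb, and at GLI3 the largest rise, 2.52, stands at 204.2 kb.

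The receptor and transducer genes held both opened and closed peaks. PTCH1 had 2 opened and 8 closed of 26 peaks (7.69% and 30.8%), and SMO 3 opened and 2 closed of 18 (16.7% and 11.1%). The co-receptor BOC had 2 closed (8%) and none opened of 25. Over all peaks 9.51% opened and 9.73% closed. The opened SMO peaks included 1 in the last part of the gene (chr7:129212705-129212994), with -0.40 ± 0.65 log2 CPM (SD, n = 6) in unstimulated and 0.36 ± 0.61 in DMSO libraries, a change of 1.07 ± 0.37 (adjusted p = 0.0312). Those groups overlapped, and the call was lost under 10 of 26 alternatives. SUFU had 2 opened and 7 closed peaks, GLI1 5 closed, and GAS1 and HHIP none by edgeR or DESeq2, with 0 of their 11 peaks at an unadjusted p under 0.05. Among the 20 own starts, and among the peaks of GLI1 and BOC, 0 rises had an unadjusted p under 0.05 and DESeq2 called 0. Of the 47 closed peaks, 34 were also closed in the residual contrast, and 7 of the 11 opened peaks were also open in it. These contrasts share the unstimulated libraries, and the same shares over all called peaks were not computed.

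In the belinostat contrast, 9 member peaks changed: 4 introns of GLI2 and GLI3 and regions beside SUFU and GLI1 closed, and 2 GLI2 introns and 1 region beside GLI1 opened. Of the 291 peaks, 3 opened (1.03%), against 0.607% of all peaks, and 6 closed (2.06%), against 1.75% of all peaks. The median log2 fold change was -0.03, beside 0.01 over all peaks. None of the 20 own-start peaks was called by edgeR or DESeq2 (3 had an unadjusted edgeR p under 0.05), nor was any of the 80 peaks of PTCH1, SMO, HHIP, BOC and GAS1 (9 at an unadjusted p, 0 by DESeq2). Without belinostat replicate 1, the start peaks of GLI3 and GAS1 (adjusted p = 0.00286 and 0.00601) and the PTCH1 peak at 46.5 kb (adjusted p = 0.0347) were lower. The GLI2 start peak was higher with library totals (0.28, adjusted p = 0.0302) and with offsets that follow strength (0.39, adjusted p = 3.17e-06). The count of closed peaks was 3 without DMSO replicate 2 or belinostat replicate 4 and 12 without belinostat replicate 1, and that of opened peaks was 1 without DMSO replicate 1 or 5 or belinostat replicate 3 or 6 and 5 without belinostat replicate 1. With library totals 10 opened and 7 closed, with offsets that follow strength 8 and 5, and with factors from the weaker peaks 0 and 4. Of all peaks, 1.1% opened and 1.46% closed with library totals, 1.09% and 1.36% with these offsets, and 0.101% and 0.993% with those factors. In 3 of the 9 called peaks the belinostat and DMSO libraries did not overlap, and 7 of the 9 were past the threshold in the residual contrast as well. The same shares over all called peaks were not computed, so these counts give no result about the members.

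The largest fall with the smallest p lay at -10.8 kb from the start of SUFU, the cytoplasmic inhibitor of GLI factors. This peak (chr10:102492910-102493428), inside the neighbouring gene ACTR1A and shown above, read 1.45, 1.81 and 2.05 log2 CPM in unstimulated, 1.01, 1.94 and 2.41 in DMSO and -0.20, 0.70 and 1.28 in belinostat libraries. Belinostat libraries were the lowest, with 3 to 15 counts each, and overlapped the DMSO libraries at 15 counts, while they lay below every unstimulated library. The change was -1.35 ± 0.25 (adjusted p = 5.7e-05), and over 26 alternatives it stayed between -1.58 and -1.21 with an adjusted p of at most 0.00139. The cytokine contrast gave 0.09 ± 0.20 there (adjusted p = 0.782) and the residual contrast -1.26 ± 0.25 (adjusted p = 2.77e-05).

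At GLI2 the intronic peak 22.7 kb from the start (chr2:120758020-120759137) read 4.03, 4.14 and 4.35 log2 CPM in unstimulated, 3.82, 3.96 and 4.20 in DMSO and 3.12, 3.37 and 3.51 in belinostat libraries. Every belinostat library lay below every library of the other groups. The change was -0.63 ± 0.13 (adjusted p = 0.00044), or -0.47 relative to peaks of its strength, and it passed under all 26 alternatives (-0.75 to -0.48, adjusted p up to 0.0489). Within the same intron-rich gene the neighbouring weaker peak at 25.0 kb (chr2:120760800-120761008) moved the other way, from 0.39 ± 0.54 log2 CPM (SD, n = 6) in DMSO to 1.25 ± 0.18 in belinostat libraries. Its groups did not overlap, but the rise of 0.92 ± 0.28 (adjusted p = 0.045) lost its call under 13 of 26 alternatives. GLI2 thus held a fall and a rise less than 3 kb apart.

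At GLI3 the intronic peak 139.3 kb from the start (chr7:42097741-42098149) read 1.64, 2.13 and 2.49 log2 CPM in unstimulated, 1.56, 2.08 and 2.51 in DMSO and 0.89, 1.31 and 1.61 in belinostat libraries. The cytokine change was -0.01 ± 0.17 (adjusted p = 0.986), and the highest belinostat library reached into the DMSO range. The belinostat change was -0.88 ± 0.21 (adjusted p = 0.00413) and passed under all 26 alternatives, with an adjusted p of at most 0.0353. The start peak of GLI3 (chr7:42236294-42238153) had medians of 5.67, 5.27 and 4.93 log2 CPM in the 3 groups in that order. Its belinostat change of -0.34 ± 0.11 did not pass (adjusted p = 0.082), although it did with the replicate block (adjusted p = 0.045), library totals (0.0477), the filter at a log2 CPM of 0 (0.0325), and without DMSO replicate 4 (0.0496) or belinostat replicate 1 (0.00286). Its residual change of -0.73 ± 0.11 passed (adjusted p = 3.66e-08), which was -0.20 relative to peaks of its strength. Of all 334857 peaks, 164424 lay below 0 in the belinostat contrast, with a median of 0.01. Of the 61 GLI3 peaks, which come from the same libraries, 42 lay below 0 and 19 above, with a median of -0.14, and 1 was called. The study itself drew attention to GLI3 in these libraries, so these values are not independent evidence of its direction.

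The strongest GLI2 peak (chr2:120825622-120826548), at 90.2 kb, fell in 2 steps, from medians of 6.22 log2 CPM in unstimulated to 5.81 in DMSO and 5.44 in belinostat libraries. The steps were -0.36 ± 0.10 (adjusted p = 0.00858) and -0.37 ± 0.10 (adjusted p = 0.0328), of which the second was lost when any of DMSO replicates 1, 2, 3 or 6 or belinostat replicates 2, 3, 4 or 5 was left out (adjusted p 0.0532 to 0.103), and also with offsets that follow strength (-0.15, adjusted p = 0.143), factors from the weaker peaks (-0.48, adjusted p = 0.269) and 2 groups only (adjusted p = 0.0638). All peaks of its strength bin had medians of -0.37 in the cytokine and -0.16 in the belinostat contrast. With offsets that follow strength, the first step was not called at this peak or the next. The peak at 182.2 kb (chr2:120917860-120918303) followed the same course, with changes of -0.42 ± 0.13 (adjusted p = 0.0163) and -0.54 ± 0.15 (adjusted p = 0.0217), beside bin medians of -0.34 and -0.12. Its second step was lost without DMSO replicate 2 or 3 or belinostat replicate 4 (adjusted p 0.0661 to 0.115). The third rise, at 230.4 kb (chr2:120966140-120966442), went from -0.02 ± 0.30 log2 CPM (SD, n = 6) in DMSO to 0.87 ± 0.29 in belinostat libraries without overlap, a change of 1.15 ± 0.33 (adjusted p = 0.032). That call was lost without DMSO replicate 2, 4 or 5 or belinostat replicate 4 or 5 (adjusted p 0.0534 to 0.134).

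GLI1, the target and activator that reads out pathway activity, had a called peak on either side of its short body. The peak 4.6 kb upstream (chr12:57455047-57455285), at the start of INHBE, changed by -0.86 ± 0.23 (adjusted p = 0.0144), from 1.57 to 2.25 log2 CPM in DMSO libraries to 0.36 to 1.59 in belinostat libraries; the call was lost without DMSO replicate 2 or belinostat replicate 4 or 5. The peak 23.8 kb downstream of the start (chr12:57483421-57483774), inside ARHGAP9 and MARS1, read 1.66, 1.97 and 2.49 log2 CPM in unstimulated, 0.44, 1.36 and 2.17 in DMSO and 1.59, 2.22 and 2.59 in belinostat libraries. It fell in the cytokine contrast (-0.74 ± 0.20, adjusted p = 0.00596) and rose in the belinostat contrast (0.76 ± 0.21, adjusted p = 0.0214), and the belinostat and unstimulated means were 2.11 and 2.07. The rise was lost without DMSO replicate 1 or 4 or belinostat replicate 3 or 6 (adjusted p 0.0505 to 0.11), and because both contrasts hold the DMSO libraries, opposite signs are favoured. Both peaks lie in the bodies of other genes, so neither can be assigned to GLI1.

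**Figure D4:**
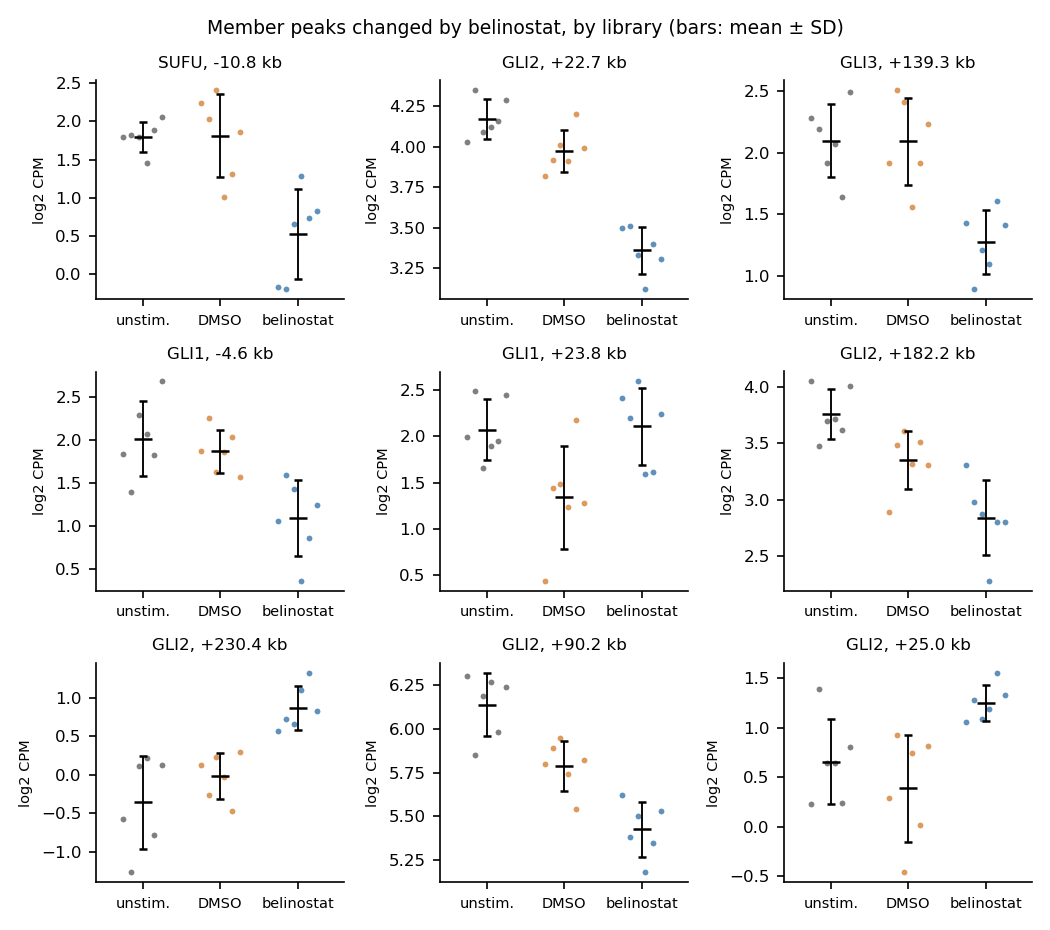
Log2 CPM in every library of the 9 member peaks that passed an adjusted p of 0.05 in the belinostat contrast, by group, with mean ± SD bars; panels give the member and the distance from its start. In the panel of GLI2 at 22.7 kb all belinostat libraries (3.12 to 3.51) lie below all DMSO libraries (3.82 to 4.20), whereas in that of SUFU at -10.8 kb the highest belinostat library, at 1.28, overlaps them.

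The residual contrast, which sets treated cells against cells that met no cytokine, held the most calls. Of the 291 peaks, 38 opened (13.1%), against 16.8% of all peaks, and 63 closed (21.6%), against 13.7% of all peaks. All 63 were in the stronger 50% of peaks, as were 45192 of the 45962 peaks closed in the whole series. Own-start peaks made up 13 of the closed ones, and the share over all coding starts was not computed. The splits under other scalings were 65 opened and 26 closed with library totals, 25 and 10 with offsets that follow strength, and 5 and 142 with factors from the weaker peaks. Of all peaks, 30.4% opened and 6.31% closed with library totals, 7.16% and 3.66% with these offsets, and 2.77% and 30.5% with those factors. Among peaks whose average log2 CPM was 1 or more, the largest falls were those beside SUFU (-1.26) and GLI1 (-1.04) described above and a GLI2 intron at 247.6 kb (chr2:120983223-120983685; -0.99 ± 0.24, adjusted p = 0.000821). The largest rises in that range were 3 GLI2 introns at 149.5, 228.3 and 116.8 kb, with changes of 0.92, 0.70 and 0.68. The rise at 228.3 kb (adjusted p = 0.0352) lost its call under 9 of 26 alternatives, among them offsets that follow strength, DESeq2, factors from the weaker peaks (0.13) and unstimulated replicate 1, 2 or 6 or belinostat replicate 2, 4 or 5 left out. In the first and last of these the belinostat and unstimulated libraries did not overlap.

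Summed over each window, the member loci moved little. Locus values were tested over 19564 protein-coding genes on a scale on which the median locus stood at -0.01 to 0.01. In the cytokine contrast none of the 9 members was higher by edgeR or DESeq2 (1 at an unadjusted p under 0.05), against 21% of all loci, and 1 was lower, against 15.8%. GAS1 missed the threshold narrowly (0.16 ± 0.07, adjusted p = 0.0517): it passed with the replicate block (adjusted p = 0.0418), 2 groups only (0.0157), offsets that follow strength (0.0493) and without unstimulated replicate 4, DMSO replicate 4 or belinostat replicate 1, 4 or 6, and turned to -0.51 with factors from the weaker peaks. SUFU was called higher when only its gene body was summed (0.10, adjusted p = 0.0425) and lower with factors from 10 kb bins (-0.20, adjusted p = 0.012) or from the weaker peaks (-0.69, adjusted p = 0.000566). The lower locus was PTCH1, the receptor, with 7.27, 7.32 and 7.40 log2 CPM in unstimulated and 7.14, 7.19 and 7.29 in DMSO libraries, a change of -0.12 ± 0.03 (adjusted p = 0.00817) with a narrow overlap. It did not pass with offsets that follow strength. In the belinostat contrast none was higher, against 2.64% of all loci, and none lower, against 5.38%, by edgeR's adjusted p, while 4 had an unadjusted p under 0.05 and DESeq2 called 2, GLI2 higher and SUFU lower. Without belinostat replicate 1, GLI3 and SUFU both passed (adjusted p = 0.045 and 0.00894), and without DMSO replicate 4 GLI3 and without DMSO replicate 5 SUFU did (adjusted p = 0.0393 and 0.0456). The 4 at an unadjusted p were GLI2 (0.05), HHIP (0.31), GLI3 (-0.10 ± 0.03, adjusted p = 0.0665) and SUFU (-0.09 ± 0.03, adjusted p = 0.0771). In the residual contrast 1 was higher, against 28.7% of all loci, and 3 lower, against 27.1%.

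The locus that was higher was HHIP, a thinly covered window with 29 to 51 counts per library, whose 2 peaks also lie in another coding gene record (ENSG00000285713) and cannot be assigned to HHIP alone. It read 2.09, 2.26 and 2.41 log2 CPM in unstimulated, a median of 2.44 and at most 2.80 in DMSO, and 2.63, 2.84 and 2.88 in belinostat libraries. Belinostat and unstimulated libraries did not overlap, and the change was 0.58 ± 0.14 (adjusted p = 0.00104). On the scale of the peak test, its start peak gave 0.24 ± 0.17 in the same contrast (adjusted p = 0.274), and with offsets that follow strength the locus gave -0.06 (adjusted p = 0.759). The 3 lower loci were GLI3 (-0.13 ± 0.03, adjusted p = 0.00187), PTCH1 (-0.13 ± 0.04, adjusted p = 0.00362) and SUFU (-0.10 ± 0.03, adjusted p = 0.00625). None of these 3 passed with offsets that follow strength, and SUFU turned to 0.10 when only its gene body was summed.

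**Figure D5:**
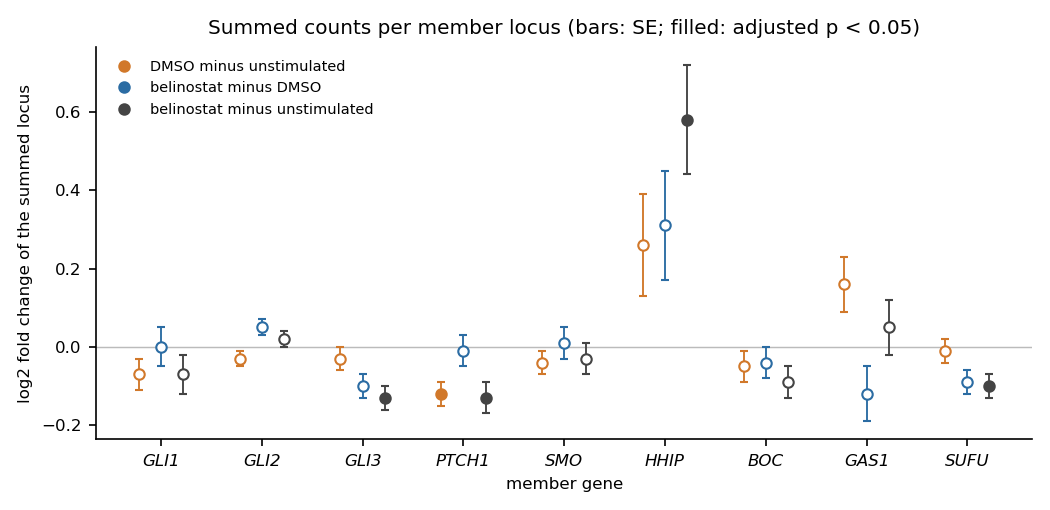
Log2 fold change of the counts summed over each member's window (vertical axis) in the 3 contrasts, with SE bars; filled points passed an adjusted p of 0.05. HHIP stands apart at 0.58 ± 0.14 in the residual contrast and PTCH1 is the filled point of the cytokine contrast, at -0.12 ± 0.03.

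Around the members, 29 other genes of the pathway were listed by role and read at the locus level. In the cytokine contrast 4 of the 29 were higher and 6 lower, beside 21% and 15.8% of all loci, which gives no result about the list as a whole. Among the ligands, SHH (0.27 ± 0.09, adjusted p = 0.019) and IHH (0.45 ± 0.09, adjusted p = 0.000703) were higher and DHH lower (-0.12, adjusted p = 0.011), at low levels for the first 2 genes, 4.34 and 4.33 log2 CPM in unstimulated cells. The co-receptor CDON was higher (0.31 ± 0.07, adjusted p = 0.00263), at 4.89 log2 CPM in unstimulated cells. Of 13 genes of the cilium and cytoplasm, TULP3 and PRKACA were lower and none higher by edgeR or DESeq2 (0 at an unadjusted p under 0.05). Of 8 mesenchymal target genes, MYCN was higher (0.70 ± 0.13, adjusted p = 0.000636), at a low 3.38 log2 CPM in unstimulated cells. BMP4 (-0.21 ± 0.05, adjusted p = 0.00195), FOXL1 (-0.20 ± 0.04, adjusted p = 0.00158) and FOXF2 (-0.14, adjusted p = 0.0335), the genes of a morphogen and of fork head factors of the gut mesenchyme, were lower. Scalings were not compared for these pathway loci. In the belinostat contrast LRP2, a receptor that also takes up hedgehog ligand, was higher (0.47 ± 0.08, adjusted p = 0.000532), with none called by edgeR or DESeq2 among the 24 ligand, cilium and cytoplasm, and target genes (5 at an unadjusted p under 0.05). In the residual contrast 8 were higher and 10 lower, beside 28.7% and 27.1% of all loci. The median change of the 29 loci was -0.04, -0.01 and -0.06 in the 3 contrasts, beside -0.01, 0.01 and -0.01 over all loci.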

How the data were processed

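Omni-ATAC libraries of Ccd18-Co cells, 6 per group, were processed by the authors with the ENCODE ATAC-seq pipeline on hg38; per the labels, peaks came from MACS2. The deposited counts are whole reads per consensus peak and library, counted by the authors with csaw, not normalized. Their scaling over 10 kb background bins needs the reads, so TMM factors over peaks were used here. Counts of all 334857 peaks of the 18 libraries were fitted together in edgeR 4.0.16 (quasi-likelihood test, 1 mean per group, average log2 CPM over -3), with Benjamini-Hochberg adjustment across every peak tested and a threshold of 0.05. Locus values sum the peaks over a gene body and 20 kb on either side, over 19564 protein-coding genes, with factors of their own. Levels are log2 CPM with a prior count of 2. Alternatives covered scaling, DESeq2 1.42.0, the filter, the groups fitted, the window, a replicate block and each library left out. On 20000 simulated peaks with 200 changed in the belinostat contrast, the test recovered 33% of 2-fold and 61% of 3-fold changes, with 4 false calls. The simulated peaks were modelled on peaks drawn from the whole series, not on the members.

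The members, gene lists and motif words were chosen with earlier results of these data known. Named peaks were, by rule, each member's start peak (the strongest within 1 kb of the canonical start), its strongest peak, its peaks with the smallest p in the first 2 contrasts, and the 3 largest called rises and falls per contrast at an average log2 CPM from 1 up, or from 0 up where fewer than 3 passed; the remaining peaks called in the belinostat contrast, the opened GLI3 peaks and the GLI2 neighbours were added after their values were seen. Sequences and words were read from the hg38 reference; no peak ran past a chromosome end. Peak starts are counted from 1. The results of 1 gene in the list of other pathway genes and of 1 marker gene are not reported here.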

Additional observations from a re-analysis of the deposited data

Results flagged for a closer look

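In 8 of the 141 groups of 6 libraries examined, over member loci and named peaks, 1 library stood far from the others by Dixon's test at its 95% level, where chance gives about 1 in 20. All values are log2 CPM. Unstimulated replicate 5 was low at the GLI3 locus (7.57, others 7.65 to 7.69). DMSO replicate 1 was low at the GLI2 peak at 199.9 kb (2.57, others 3.25 to 3.63), low at the BOC peak at 3.7 kb (3.48, others 3.94 to 4.19) and high at the GLI3 peak at 204.2 kb (0.93, others -0.19 to 0.13). DMSO replicate 3 was low at the GLI2 peak at 228.3 kb (-0.19, others 1.12 to 1.51) and at the SUFU peak at 31.9 kb (-0.78, others 0.58 to 1.22). Belinostat replicate 1 was low at the SMO peak at 24.2 kb (-0.17, others 0.40 to 0.66), and belinostat replicate 4 at the BOC peak at 3.7 kb (2.95, others 3.81 to 3.88).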

How the results depend on the processing

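Log2 fold changes of member loci and named peaks were recomputed under every setting other than leaving out 1 library, which gave 629 values. Of these, 501 held their direction and side of the threshold, 50 lost and 34 gained a call, 16 turned and 28 others moved. The counts of peaks and loci given next are not part of this tally. The causes were not tested beyond what each setting builds in. Opened and closed member peaks in the cytokine contrast (11 and 47) were 20 and 10 with library totals, 10 and 1 with loess offsets, 5 and 119 with TMM over the weaker 50% of peaks, 5 and 21 with DESeq2, and 7 and 19 with only peaks over a log2 CPM of 0. The shares of all peaks under the scalings are given above. They were 4.54% and 5.55% with DESeq2 and 11.8% and 8.59% with the higher filter. In the belinostat contrast (3 and 6), the opened peaks were 10 with library totals, 8 with loess offsets, 0 with TMM over the weaker peaks, 1 with DESeq2 and 9 with the higher filter. Of all peaks, 0.323% opened with DESeq2 and 1.36% with the higher filter. In the residual contrast (38 and 63) they were 65 and 26 with library totals, 25 and 10 with loess offsets, and 5 and 142 with TMM over the weaker peaks. The scalings moved the median of all peaks in the cytokine contrast from 0.13 to 0.34 with library totals and to -0.29 with TMM over the weaker peaks, and the median of all loci from -0.01 to -0.20 with TMM over 10 kb bins and -0.69 over the weaker peaks. Changed member loci in the cytokine contrast (1) came to 7 and 9 under these last 2 settings and to 2 with 2 groups only, the replicate block or the gene body only. Of all loci, 12.2% were higher and 60.6% lower with TMM over 10 kb bins, and 2.11% and 86.3% over the weaker peaks. The shares were 22% and 21.1% with 2 groups only, 21.7% and 16.3% with the replicate block, and 19.1% and 12% with the gene body only. In the belinostat contrast (0) the changed member loci came to 1 with loess offsets and 2 with DESeq2, and in the residual contrast (4) to 1 with loess offsets and 8 with TMM over 10 kb bins or the weaker peaks. Of all loci, 2.89% were higher and 3.28% lower in the belinostat contrast with loess offsets, and 2.83% and 4.93% with DESeq2. In the residual contrast they were 23.7% and 20.6% with loess offsets, 14.1% and 66.1% with 10 kb bins, and 1.94% and 88.1% with the weaker peaks.

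Values that turned did so under scaling or window. With TMM over the weaker peaks, HHIP came to -0.418 and GAS1 to -0.513 in the cytokine contrast, and GLI2 to -0.854, HHIP to -0.326 and GAS1 to -0.807 in the residual contrast; with TMM over 10 kb bins GLI2 came to -0.227 there. With the gene body only, SUFU came to 0.101 and 0.103 in these contrasts. With loess offsets the residual locus values were -0.058 for HHIP and 0.007 for SUFU, and the cytokine values of the start peaks were 0.016 for GLI1, 0.008 for GLI2, 0.009 for GLI3, 0.013 for BOC, 0.292 for GAS1 and 0.115 for SUFU.

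Leaving out each library in turn gave 6 to 12 opened, 29 to 51 closed and 1 to 2 changed loci in the cytokine contrast, 1 to 5, 3 to 12 and 0 to 2 in the belinostat contrast, and 26 to 39, 51 to 74 and 4 to 5 in the residual contrast. Replicate numbers are shared between groups, but of 18 same-numbered pairs 1 correlated over 0.1 (-0.20 to 0.11) and 4 libraries matched their own number best, so the samples share only a number; the replicate block gave 10 opened and 49 closed peaks in the cytokine contrast and 3 and 7 in the belinostat contrast. At 4661678 to 11352032 counts per library, weak peaks held few counts. A simulation of the belinostat contrast used 20000 peaks modelled on peaks drawn from the whole series. It recovered 33% of 2-fold and 61% of 3-fold changes, so many such changes would be missed among peaks at large. Member peaks were stronger than most, and the recovery at their strength was not computed. The replicate block also called the belinostat fall of the GLI3 start peak (adjusted p = 0.045) and the cytokine rise of the GAS1 locus (adjusted p = 0.0418).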
